A study of Drosophila melanogaster with 23 samples.

Results

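The response of male flies to a warm environment was followed here in 7 of the 23 RNA-seq libraries of the series, the 3 libraries of males kept at 28 °C and the 4 libraries of males kept at 18 °C. All were virgin *Drosophila melanogaster* of the laboratory strain w1118, a white-eyed stock that carries a deletion in the gene white. The flies were reared at 24 °C and moved to their treatment temperature at an age of about 5 days. The 28 °C males were 35 days old and the 18 °C males 45 days old when they were frozen, so temperature and age cannot be told apart in this comparison. Each library was made from a pool of 10 whole flies, so a value is an average over all tissues and over 10 individuals. The labels number the pools and do not say whether they came from separate cultures, and the p-values measure the spread between pools. The males at 24 °C (4 libraries, 45 days old like those at 18 °C) entered the scaling and the estimate of spread of the male fit. They thus bear on every standard error and adjusted p of the male comparison, while their levels are given only where named. The females (4 libraries each, 35 days old at 28 °C and 45 days old at 18 °C) were used only where named.

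The table holds expected counts, which are reads assigned to genes by a statistical model that splits ambiguous reads. Totals ran from 18511586 to 20119003 per library, and levels are given below in CPM, which are counts relative to the library total, scaled between male libraries. All 7 libraries carried roX1, the noncoding RNA of male dosage compensation, at 794 to 897 CPM in 28 °C males and 891 to 1077 CPM in 18 °C males, against 4.97 to 8.61 CPM in females at 28 °C and 2.46 to 3.60 CPM in females at 18 °C. A single predicted transcript without a gene name took 5.68 to 6.76% of all counts at 28 °C and 10.9 to 13.61% at 18 °C. The first principal component of the 7 libraries held 67.8% of their variance and separated the temperatures. The second held 17.2%, with 18 °C replicate 3 at one end of it. That pool stood apart from the other 18 °C pools, with a chi-square per degree of freedom of 49.74 to 96.53 against them, where they differed from each other by 11.43 to 19.45. It was high in digestive and immune transcripts, and where leaving it out moved a list's count of rises or falls by more than 1.5 times, that count is given.

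Temperature sets the pace of an insect's physiology, because a fly cannot hold its own body temperature. Warmth speeds feeding, digestion, respiration and ageing, and adult flies meet heat with chaperones, with changes in fuel use and with changes in the lipids of membranes and cuticle. In whole-fly RNA the main sources are the muscles, the gut, the fat body (the organ of storage, lipid synthesis and systemic immunity, comparable to liver and adipose tissue), the head with its large eyes, and in males the testis and the accessory glands.

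Of 10918 features tested, 2578 (23.6%) differed between 28 °C and 18 °C males at an adjusted p of 0.01 or less in edgeR's quasi-likelihood test. Higher levels at 28 °C were called for 1163 features (10.7% of those tested) and lower levels for 1415 (13.0%). Counts of list members called below are to be read against these shares. The changes were mostly moderate, with a median absolute log2 fold change of 0.69 among the calls. At least 2-fold differences were found for 398 higher and 334 lower features, and at least 4-fold differences for 83 higher and 50 lower. Without 28 °C replicate 2 the count of calls was 1671, without 28 °C replicate 3 it was 1680, and without 18 °C replicate 3 it was 2867 (26.3%). All fold changes below are log2 values for 28 °C over 18 °C with the standard error of the fit, and "higher" or "rose" means higher at 28 °C.

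The 12 largest rises among named genes with a mean of at least 5 CPM over the 7 libraries joined fat body, digestive, metabolic and immune transcripts. A gene could reach that mean through the group where it was high, in rises and falls alike. Among the rises, hll, CG10814, CG13155 and CecC averaged only 0.334, 0.623, 0.796 and 1.22 CPM in 18 °C males. The largest was that of hll, with 43.2, 8.05 and 7.84 CPM in 28 °C males, against 0.377, 0.375, 0.156 and 0.428 CPM in 18 °C males (5.86 ± 0.71, adjusted p = 0.00019), with 28 °C replicate 1 far above the other warm pools. Without that pool its log2 fold change was 4.55. CG10814 had 31.9, 19.4 and 14.6 CPM in 28 °C males, against 0.485, 0.268, 0.881 and 0.856 CPM in 18 °C males (5.12 ± 0.49, adjusted p = 5.8e-05). The storage hexamerin Lsp2 (chromosome 3L, 12129393 to 12131869), a protein that the fat body makes in bulk in larvae, reached 179, 110.2 and 132 CPM in 28 °C males, against 2.05, 4.34, 3.63 and 8.45 CPM in 18 °C males (4.92 ± 0.76, adjusted p = 0.00063). The groups of all 3 genes were far apart, with the lowest 28 °C pool above the highest 18 °C pool by more than 10-fold in each. The digestive serine protease Jon99Ci stood at 309, 260.4 and 326 CPM in 28 °C males, against 21.7, 22.9, 14.8 and 31.3 CPM in 18 °C males (3.72 ± 0.42, adjusted p = 0.00013). CG3999, a subunit of the glycine cleavage system, had 115, 40.8 and 36.5 CPM in 28 °C males, against 4.37, 5.74, 5.39 and 4.55 CPM in 18 °C males (3.67 ± 0.43, adjusted p = 0.00015). The remaining rises of this set were CG34040 (4.25 ± 0.56, adjusted p = 0.00028), CG13155 (3.86 ± 0.46, adjusted p = 0.00017), CG15263 (3.66 ± 0.40, adjusted p = 0.00011), CG6839 (3.32 ± 0.39, adjusted p = 0.00015), the stress peptide gene TotM (3.22 ± 0.69, adjusted p = 0.0042) and the antibacterial cecropin CecC (3.14 ± 0.74, adjusted p = 0.0066). CG11854, a member of the takeout family of secreted proteins, had the smallest standard error of the 12, with 46.7, 56.2 and 61.0 CPM in 28 °C males, against 3.56, 5.20, 4.61 and 4.71 CPM in 18 °C males (3.59 ± 0.16, adjusted p = 1.1e-06). Its level at 24 °C, 53.8, 48.6, 57.5 and 39.0 CPM, lay beside the 28 °C values and not beside those of 18 °C males of the same age.

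Falls were led by genes with strongly scattered 18 °C pools. Npc2e (chromosome 3R, 10053332 to 10054348), of the Niemann-Pick type C2 family of sterol-binding proteins, had 0.828, 1.18 and 0.449 CPM in 28 °C males, against 2.37, 49.9, 81.4 and 19.8 CPM in 18 °C males (-5.54 ± 1.06, adjusted p = 0.0022). The lysozyme gene LysX had 1.03, 1.28 and 1.60 CPM in 28 °C males, against 18.6, 54.3, 86.3 and 29.2 CPM in 18 °C males (-5.17 ± 0.81, adjusted p = 0.00069). In both, 18 °C replicate 3 was the highest and replicate 1 the lowest 18 °C pool, and the 24 °C males stood near the 28 °C level, at 2.27, 0.828, 2.09 and 1.15 CPM for Npc2e and 8.27, 1.03, 1.88 and 1.501 CPM for LysX. Replicate 3 was also the highest and replicate 1 the lowest 18 °C pool for CG7298 (-3.19 ± 0.81, adjusted p = 0.00986), CG31041 (-2.97 ± 0.53, adjusted p = 0.0015), the helicase gene Mov10 (-2.79 ± 0.66, adjusted p = 0.0069), the acyl-CoA-binding protein gene Acbp6 (-2.61 ± 0.59, adjusted p = 0.0054) and the serine protease genes CG17571 (-2.69 ± 0.35, adjusted p = 0.00026) and CG11912 (-2.45 ± 0.51, adjusted p = 0.0033). Some falls were even across pools. Ctr1B (chromosome 3R, 8317612 to 8319205), the high-affinity copper importer of the gut, had 14.3, 14.9 and 14.8 CPM in 28 °C males, against 114, 119.9, 115 and 111 CPM in 18 °C males (-2.97 ± 0.11, adjusted p = 1.9e-07), with 33.4, 46.8, 41.4 and 41.1 CPM at 24 °C between the groups. LysP, a lysozyme of the salivary glands, had 6.47, 13.1 and 12.7 CPM in 28 °C males, against 71.9, 69.7, 76.2 and 69.3 CPM in 18 °C males (-2.73 ± 0.39, adjusted p = 0.00044). CG44013 (-3.09 ± 0.25, adjusted p = 3.1e-05) and the odorant-binding protein gene Obp56h (-2.68 ± 0.30, adjusted p = 0.00013) completed the set. Lsp2, Npc2e, Ctr1B and CG11854 share 84.6, 92.4, 38.4 and 21.6% of their exon bases with another gene, and the counting was not stated to use strand, so their reads cannot be told apart from those of the overlapping genes. Calls in this set that ended when 1 library was left out were those of CecC (any library but 18 °C replicate 3, adjusted p up to 0.033), TotM (any but 18 °C replicate 3 and 28 °C replicate 3, up to 0.019), CG7298 (any but 18 °C replicate 1, up to 0.043), Mov10 and Acbp6 (18 °C replicate 2 or any 28 °C library, up to 0.031 and 0.027), and Npc2e and CG11912 (any 28 °C library, up to 0.014 and 0.018). Without 18 °C replicate 3 the log2 fold changes were 4.70 for CecC, 3.80 for TotM, -2.28 for CG7298, -2.03 for Mov10 and -4.86 for Npc2e, and without 28 °C replicate 1 they were 2.53 for CecC and 2.95 for CG3999.

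**Figure D1:**
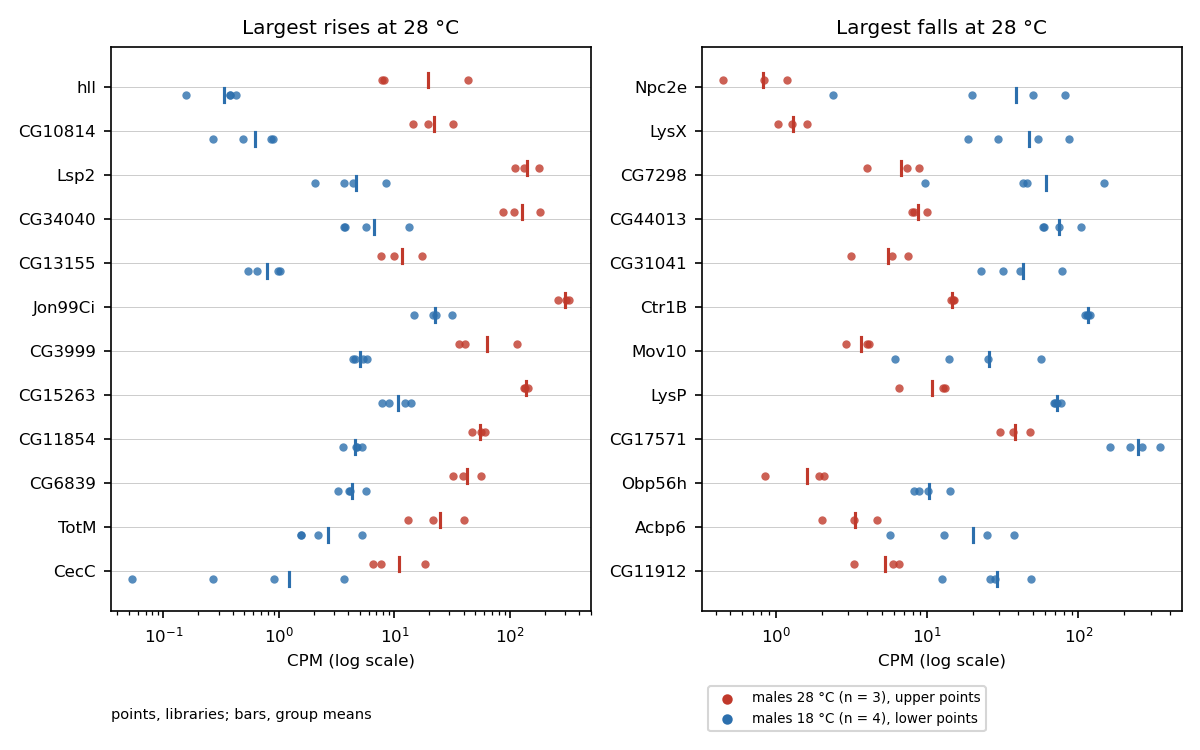
CPM (log axis) of the 12 named genes with the largest rises and the 12 with the largest falls, with a point for each of the 3 libraries of 28 °C males (red, upper) and the 4 of 18 °C males (blue, lower) and a bar at each group mean. In every row the groups do not overlap, which the choice of these genes required; Npc2e, LysX, CG7298 and Mov10 spread over a wide range at 18 °C while Ctr1B and CG11854 do not.

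Starch and sugar digestion showed the largest median rise of all gene lists used here. Amylases cut starch and maltases cut maltose and sucrose in the gut, and 9 of their 13 measured genes rose at 28 °C while Mal-A5 fell (-0.37 ± 0.09, adjusted p = 0.0084). The list had a median log2 fold change of 2.17, where all features tested had a median of 0.0021 and 10.7% of them were called higher. The summed level of the list was 14571, 12011 and 12918 CPM in 28 °C males, against 1530.1, 2639.6, 4914 and 2059 CPM in 18 °C males. Every 28 °C pool was more than 2-fold above every 18 °C pool, with replicate 3 the highest of the cool pools. The amylase Amy-p had 4453, 3203 and 3603 CPM in 28 °C males, against 415, 670.3, 921 and 577 CPM in 18 °C males (2.54 ± 0.46, adjusted p = 0.0015), and its close copy Amy-d followed it (2.56 ± 0.50, adjusted p = 0.0025). Mal-A1, the most abundant maltase, had 4041, 3816 and 3956 CPM in 28 °C males, against 379, 768, 1883 and 478 CPM in 18 °C males (2.17 ± 0.52, adjusted p = 0.0077). Mal-A4 (2.58 ± 0.38, adjusted p = 0.00046) and Mal-A7 (2.46 ± 0.33, adjusted p = 0.00032) rose by similar amounts. The call of Mal-A5 ended when any 1 of the 7 libraries was left out (adjusted p up to 0.035). Without 18 °C replicate 3, 10 members rose, and without 18 °C replicate 2 or 28 °C replicate 1, 6 did. The call of Mal-A1 ended when any library other than 18 °C replicate 3 was left out (adjusted p up to 0.025). In whole flies, fewer cells of a type and less RNA per cell cannot be told apart, which holds for every list below. Reads of Amy-p and Amy-d, of neighbouring Mal-A genes and of LysB, LysD and LysE may have been split between near-identical copies.

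Other digestive lists were mixed. Of 29 measured Jonah and trypsin proteases 2 rose and 1 fell, which is 10.3% called against 23.6% of all features. The rises were those of Jon99Ci and the trypsin gene deltaTry, with 429, 401 and 482 CPM in 28 °C males, against 60.4, 129.9, 167 and 92.4 CPM in 18 °C males (1.96 ± 0.36, adjusted p = 0.0017). Jon65Aii fell (-2.03 ± 0.43, adjusted p = 0.0038), a call that ended without 18 °C replicate 1 or 2 or 28 °C replicate 1 or 2 (adjusted p up to 0.019). Without 18 °C replicate 3, 5 proteases rose. The list's sum was 9567, 8668 and 10623 CPM in 28 °C males, against 5854, 7296, 10016 and 5979.8 CPM in 18 °C males, and 18 °C replicate 3 lay inside the range of the 28 °C pools. The 5 lysozymes split, with 2 rises and 2 falls. LysX and LysP fell as described, while LysD, a midgut digestive lysozyme, had 1251, 1411 and 1828 CPM in 28 °C males, against 710.3, 641, 582 and 567 CPM in 18 °C males (1.26 ± 0.22, adjusted p = 0.0012) and LysB rose with it (1.13 ± 0.23, adjusted p = 0.0032), a call that ended without 18 °C replicate 4 or 28 °C replicate 3 (adjusted p up to 0.017). Of 34 genes of the peritrophic matrix and chitin binding, 4 rose and 4 fell, a share of 23.5% that is close to the 23.6% of all features, and 7 rose without 28 °C replicate 1. Cda9, a chitin deacetylase, rose (3.05 ± 0.28, adjusted p = 5.0e-05), as did the mucin gene Mur18B (1.10 ± 0.16, adjusted p = 0.00055), and Peritrophin-15b, whose exons lie within another gene, fell (-1.51 ± 0.19, adjusted p = 0.00020). Sugar transporters of the SLC2 family rose in 7 of 23 cases, 9 without 18 °C replicate 3 and 3 without 28 °C replicate 1. CG1208 was the largest of these, with 166, 123 and 124 CPM in 28 °C males, against 28.5, 36.4, 62.7 and 37.3 CPM in 18 °C males (1.74 ± 0.25, adjusted p = 0.00044). The exception was Glut1, a glucose transporter of neurons and glia, which was lower at 28 °C (-0.49 ± 0.10, adjusted p = 0.0025), although not past the threshold without 28 °C replicate 1 or 3 (adjusted p up to 0.014). Of 21 genes of the Malpighian tubules, the fly's kidneys, 2 rose and 1 fell (14.3% called), and 4 rose without 18 °C replicate 3. The eye pigment transporter gene white (w), in which this strain carries a deletion, was read at a low level. It had 5.48, 3.59 and 6.09 CPM in 28 °C males, against 1.94, 1.66, 0.674 and 0.535 CPM in 18 °C males (2.07 ± 0.36, adjusted p = 0.0014). Xanthine dehydrogenase (ry) rose (1.06 ± 0.15, adjusted p = 0.00047) and the channel gene Best2 fell (-0.62 ± 0.07, adjusted p = 0.00013).

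**Figure D2:**
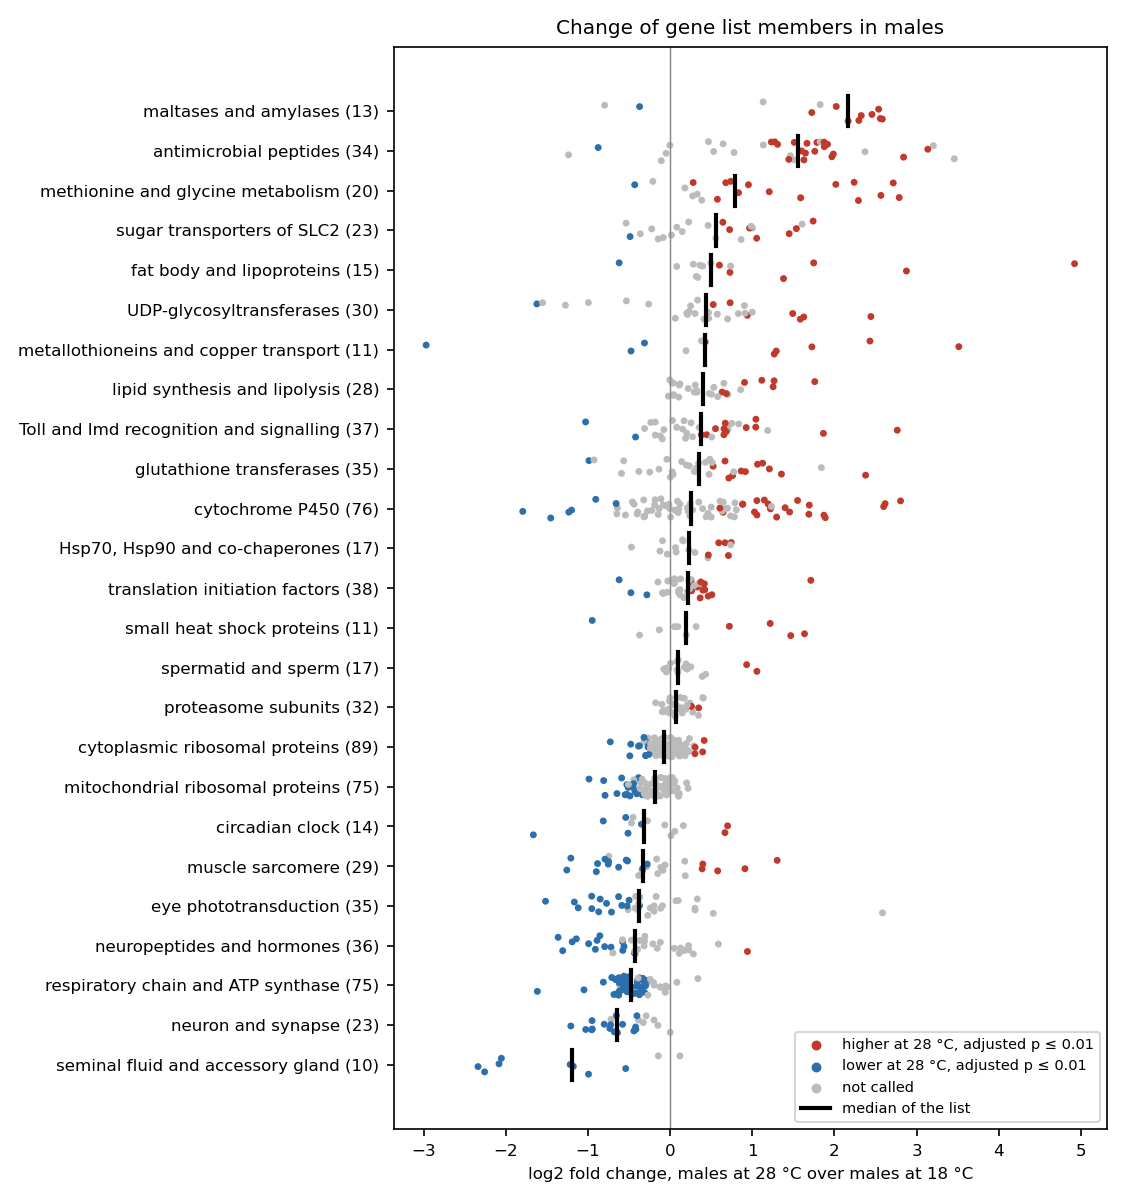
Log2 fold change of each measured member of 25 gene lists in males, 28 °C over 18 °C, with red points higher and blue points lower at an adjusted p of 0.01 or less, grey points not called, and black ticks at list medians; the number of members is in brackets. Lists run from maltases and amylases (median 2.17) to seminal fluid (median -1.20).

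Rises outnumbered falls among fat body and lipid genes, although most members of both lists did not pass the test. Of 15 fat body and lipoprotein genes, 6 rose, 1 fell and 8 were not called, with 9 rises without 18 °C replicate 3 and 4 without 18 °C replicate 1 or 4 or 28 °C replicate 2 or 3. Lsp1beta, a second larval storage hexamerin, had 30.4, 35.5 and 38.2 CPM in 28 °C males, against 0.970, 8.80, 6.84 and 2.25 CPM in 18 °C males (2.88 ± 0.57, adjusted p = 0.0026). Transferrin (Tsf1), the main iron carrier of the haemolymph, was far more abundant, with 1941, 2664 and 2683 CPM in 28 °C males, against 569.9, 724, 906 and 692 CPM in 18 °C males (1.75 ± 0.23, adjusted p = 0.00027), and fat-spondin rose to a similar degree (1.38 ± 0.20, adjusted p = 0.00050). The summed list was 4709, 6336 and 6637 CPM in 28 °C males, against 2594, 3529, 4190.1 and 3299 CPM in 18 °C males, and its groups did not overlap. Of 28 genes of lipid synthesis and lipolysis, 7 rose and 21 were not called, a share of 25% called against 23.6% of all features, and 4 rose without 18 °C replicate 2 or 28 °C replicate 1. The rises included each enzyme from citrate to long-chain fatty acid. ATP citrate lyase (ATPCL) had 735, 693 and 719 CPM in 28 °C males, against 254, 288, 339 and 319.6 CPM in 18 °C males (1.25 ± 0.14, adjusted p = 0.00013), acetyl-CoA carboxylase (ACC) followed (0.91 ± 0.18, adjusted p = 0.0024), and both fatty acid synthases rose, FASN2 of the oenocytes with 410.3, 584 and 536 CPM in 28 °C males, against 85.3, 133, 177 and 207 CPM in 18 °C males (1.76 ± 0.27, adjusted p = 0.00065) and FASN1 of the fat body less (0.63 ± 0.15, adjusted p = 0.0067). The main fat-body lipase, brummer (bmm), rose at the same time, with 341, 170.4 and 143 CPM in 28 °C males, against 90.8, 94.9, 105 and 112 CPM in 18 °C males (1.12 ± 0.24, adjusted p = 0.0038), with 28 °C replicate 1 the highest pool and a log2 fold change of 0.64 without it. The calls of ACC (28 °C replicate 1), bmm (18 °C replicate 1 or 2) and FASN1 (18 °C replicate 2 or any 28 °C library) ended without those libraries, with adjusted p up to 0.012, 0.013 and 0.027.

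Cuticular hydrocarbons are the waxy layer that limits water loss, and the last step of their synthesis is made by the oenocyte enzyme Cyp4g1. It was one of the most abundant transcripts that changed, with 13825, 17889 and 18886 CPM in 28 °C males, against 1347, 2321, 2844 and 4479.8 CPM in 18 °C males (2.62 ± 0.42, adjusted p = 0.00076). Its group means were 16866 ± 2681 CPM in 28 °C males and 2748 ± 1311 CPM in 18 °C males (SD), and the 24 °C males had 4233 ± 1855 CPM. The cytochrome P450 reductase Cpr, its electron donor, rose (1.33 ± 0.25, adjusted p = 0.0020), as did the fatty acyl reductase FarO (1.60 ± 0.21, adjusted p = 0.00026). The other 12 genes of the desaturase and hydrocarbon list held 1 fall and 11 members that did not pass the test.

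Methionine, glycine and one-carbon metabolism rose in 14 of its 20 measured genes, against 10.7% of all features called higher, and slgA, a proline dehydrogenase, fell (-0.43 ± 0.08, adjusted p = 0.0015). This pathway passes single carbons from serine, glycine and sarcosine through folate, and it sets the pool of S-adenosylmethionine, the methyl donor. Glycine N-methyltransferase (Gnmt), which consumes S-adenosylmethionine, had 220.0, 317 and 295 CPM in 28 °C males, against 32.9, 50.3, 41.5 and 44.1 CPM in 18 °C males (2.72 ± 0.26, adjusted p = 6.3e-05). Its 24 °C level, 122 ± 49.2 CPM (SD), lay between the others. Sarcosine dehydrogenase (Sardh) had 71.8, 23.7 and 16.7 CPM in 28 °C males, against 3.29, 4.88, 7.57 and 5.83 CPM in 18 °C males (2.79 ± 0.46, adjusted p = 0.00091). The folate enzymes pug, with 1101, 335 and 286 CPM in 28 °C males, against 67.0, 98.8, 111 and 111 CPM in 18 °C males (2.57 ± 0.41, adjusted p = 0.00076), and Nmdmc, with 191, 48.7 and 37.4 CPM in 28 °C males, against 19.6, 17.001, 20.7 and 18.1 CPM in 18 °C males (2.29 ± 0.48, adjusted p = 0.0035), shared a feature with Sardh. In all 3 genes 28 °C replicate 1 was more than 2-fold above the other warm pools, and the purine enzyme gene Gart had 550.0, 185 and 124 CPM in 28 °C males, against 45.7, 60.2, 72.0 and 64.7 CPM in 18 °C males (2.24 ± 0.41, adjusted p = 0.0018). The groups did not overlap in any of these 4 genes, as in 22.5% of all features in that direction. Serine hydroxymethyltransferase (Shmt) rose with a smaller lead of that pool, 446, 215 and 211 CPM in 28 °C males, against 62.7, 75.7, 80.4 and 68.1 CPM in 18 °C males (2.02 ± 0.26, adjusted p = 0.00024), and S-adenosylhomocysteine hydrolase (Ahcy) rose too (0.95 ± 0.14, adjusted p = 0.00045). The summed list was 6288, 4193 and 4075 CPM in 28 °C males, against 2538, 2749.5, 2740.0 and 2681 CPM in 18 °C males. Without 28 °C replicate 1 the log2 fold changes were 1.90 for Sardh, 1.68 for pug, 1.35 for Gart and 1.19 for Nmdmc. The call of Nmdmc ended without 18 °C replicate 2 or 4 (adjusted p up to 0.013).

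**Figure D3:**
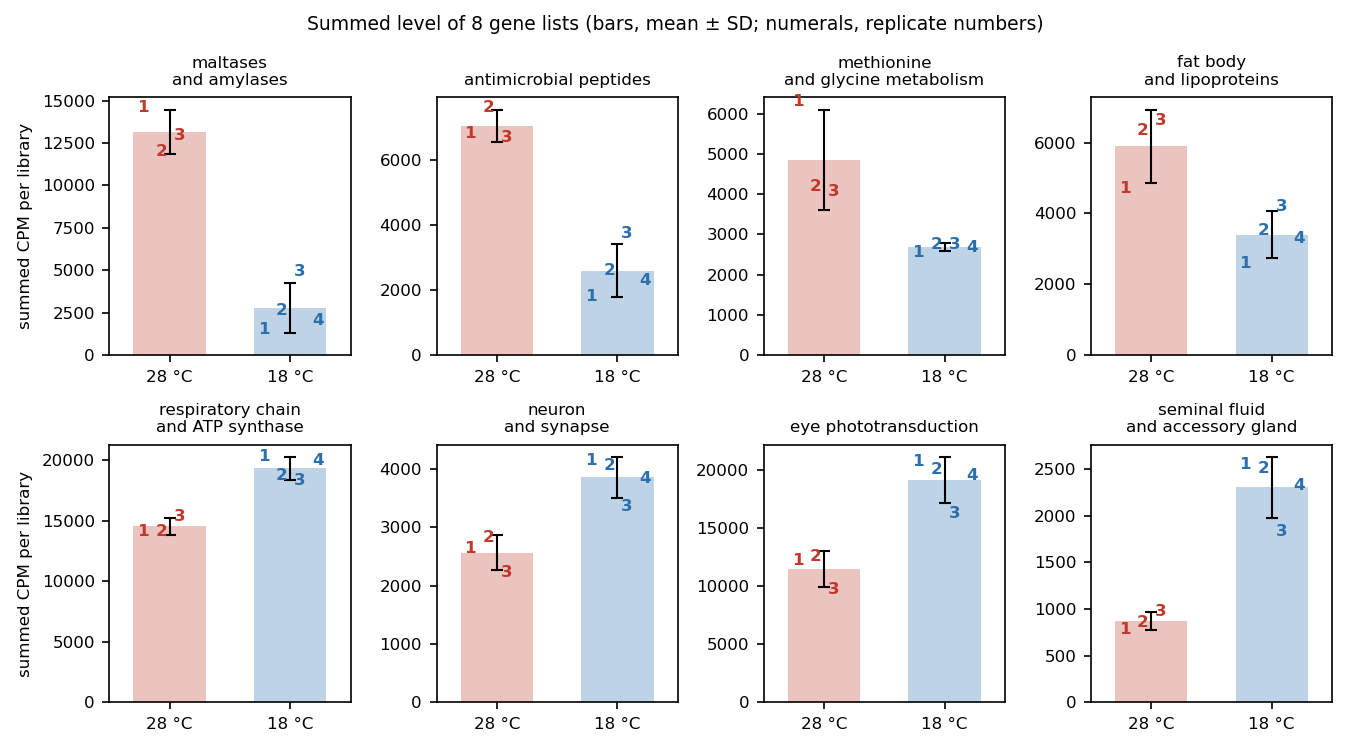
Summed CPM of 8 gene lists in each library, 28 °C males (red, 3 libraries) left of 18 °C males (blue, 4 libraries), with bars at the mean, error bars of 1 SD and numerals for the replicate number. The 28 °C pools lie above all 18 °C pools in the upper row and below them in the lower row. Of the 18 °C pools, replicate 3 lies nearest to the 28 °C level in every panel except methionine and glycine metabolism.

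Of the immune lists, that of the antimicrobial peptides held the highest share of rises, with a wide spread between pools. Flies answer microbes through the Toll and Imd pathways, whose peptidoglycan sensors and signalling proteins end in the secretion of antimicrobial peptides by the fat body and gut. Of 34 measured antimicrobial and immune-induced peptide genes, 18 rose and 1 fell, and 26 rose without 18 °C replicate 3, while 10 did without 28 °C replicate 2. Their summed level was 6829, 7625 and 6709 CPM in 28 °C males, against 1803, 2594, 3729.5 and 2286 CPM in 18 °C males. The attacin AttC had 369.7, 179 and 347 CPM in 28 °C males, against 11.3, 41.3, 97.7 and 15.9 CPM in 18 °C males (2.84 ± 0.69, adjusted p = 0.0079), and the defensin Def had 29.8, 17.6 and 9.24 CPM in 28 °C males, against 1.78, 5.79, 7.26 and 4.17 CPM in 18 °C males (1.99 ± 0.50, adjusted p = 0.0090). Among targets of Toll, BomS1 had 111, 201 and 141 CPM in 28 °C males, against 22.2, 37.97, 58.5 and 35.7 CPM in 18 °C males (1.97 ± 0.35, adjusted p = 0.0015). IM18 rose to 178, 106 and 199.8 CPM in 28 °C males, against 40.2, 42.4, 63.7 and 29.95 CPM in 18 °C males (1.87 ± 0.30, adjusted p = 0.00082), although its exons lie entirely within those of another gene. Several classical Imd targets did not pass the test, and in the 3 that follow 18 °C replicate 3 was the highest cool pool. Diptericin A (DptA) had 524, 109 and 173 CPM in 28 °C males, against 4.26, 22.5, 80.7 and 8.99 CPM in 18 °C males (3.20 ± 0.98, adjusted p = 0.023), drosocin (Dro) had 239.8, 75.8 and 78.5 CPM in 28 °C males, against 2.59, 73.7, 154 and 8.88 CPM in 18 °C males (1.14 ± 1.04, adjusted p = 0.42), and metchnikowin (Mtk) had 136, 105 and 161.8 CPM in 28 °C males, against 6.04, 24.03, 115 and 6.58 CPM in 18 °C males (1.83 ± 0.89, adjusted p = 0.13). DptB (3.46 ± 0.88, adjusted p = 0.0102) and the Toll target drosomycin, Drs (1.51 ± 0.39, adjusted p = 0.011), lay just outside the threshold. The calls of AttC (any library but 18 °C replicate 3, adjusted p up to 0.025) and Def (any but 18 °C replicate 3 and 28 °C replicate 3, up to 0.048) ended with 1 library left out, and AttC had a log2 fold change of 3.71 without 18 °C replicate 3.

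Sensors and signalling genes of both pathways rose in 12 of 37 cases and fell in 2, with 4 rises left without 28 °C replicate 2, 15 without 18 °C replicate 3, and 1 fall left without any 1 of the 7 libraries. The peptidoglycan recognition protein PGRP-SB1 had 101, 74.6 and 108 CPM in 28 °C males, against 5.61, 12.9, 28.5 and 8.56 CPM in 18 °C males (2.77 ± 0.47, adjusted p = 0.0012), and PGRP-SD had 31.3, 22.6 and 26.8 CPM in 28 °C males, against 2.96, 6.92, 15.1 and 4.49 CPM in 18 °C males (1.87 ± 0.45, adjusted p = 0.0072), with 2.49 on the log2 scale without 18 °C replicate 3. Its call ended without any other library (adjusted p up to 0.026). The protease SPE, which activates the Toll ligand, rose to 106, 132 and 129.5 CPM in 28 °C males, against 54.1, 57.5, 74.2 and 51.8 CPM in 18 °C males (1.04 ± 0.14, adjusted p = 0.00027). The caspase Dredd of the Imd pathway moved the other way and evenly, with 25.8, 25.6 and 27.1 CPM in 28 °C males, against 56.0, 56.3, 51.2 and 49.95 CPM in 18 °C males (-1.03 ± 0.09, adjusted p = 4.4e-05). Thioester proteins, opsonin-like factors of the haemolymph, rose in the cases of Tep4 (1.45 ± 0.22, adjusted p = 0.00055) and Tep2 (1.23 ± 0.17, adjusted p = 0.00041), and among the serpins, inhibitors of proteases, Spn88Eb rose (1.48 ± 0.21, adjusted p = 0.00043) and Spn77Bc fell (-1.18 ± 0.15, adjusted p = 0.00024). The scavenger receptor croquemort (crq), a phagocytic receptor, had 156, 161.7 and 162.2 CPM in 28 °C males, against 71.9, 76.6, 98.8 and 78.3 CPM in 18 °C males (0.97 ± 0.14, adjusted p = 0.00040). It was the only rise among 22 blood cell and basement membrane genes, 6 of which rose without 18 °C replicate 3. Of 13 JAK/STAT genes 1 fell. The Turandot stress peptides overlapped between the groups except for TotM, which had 21.5, 39.7 and 13.2 CPM in 28 °C males, against 1.56, 2.20, 5.29 and 1.55 CPM in 18 °C males. TotA had 52.8, 167 and 95.5 CPM in 28 °C males, against 36.8, 74.6, 96.4 and 61.5 CPM in 18 °C males (0.64 ± 0.48, adjusted p = 0.32).

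Some chaperones rose and others did not pass the test. Small heat shock proteins hold unfolded proteins in solution, and of 11 measured genes 4 rose and 1 fell. The mitochondrial Hsp22 had 136, 246 and 269 CPM in 28 °C males, against 71.1, 41.8, 90.0 and 76.3 CPM in 18 °C males (1.64 ± 0.27, adjusted p = 0.0010), l(2)efl had 302, 327 and 356 CPM in 28 °C males, against 129, 132, 101 and 112 CPM in 18 °C males (1.47 ± 0.10, adjusted p = 1.4e-05), and Hsp23 had 55.6, 61.8 and 73.6 CPM in 28 °C males, against 30.5, 25.1, 23.6 and 30.2 CPM in 18 °C males (1.22 ± 0.12, adjusted p = 6.2e-05). Hsp26 rose less (0.72 ± 0.16, adjusted p = 0.0053) and CG13133 fell (-0.95 ± 0.21, adjusted p = 0.0049), and both calls ended with some single libraries left out, with adjusted p up to 0.026 (any but 18 °C replicates 1 and 3) and 0.025 (any but 18 °C replicate 3 and 28 °C replicate 2). The constitutive cytosolic chaperone Hsc70-4 was the most abundant of the risers, with 3654, 4230.5 and 4219 CPM in 28 °C males, against 2376, 2429.5, 2586 and 2474 CPM in 18 °C males (0.71 ± 0.08, adjusted p = 0.00016). Its co-chaperones moved with it, Stip1 (0.67 ± 0.11, adjusted p = 0.00095) and the exchange factor Hsp110 (0.59 ± 0.08, adjusted p = 0.00033), and so did the inducible Hsp68 (0.74 ± 0.10, adjusted p = 0.00026). In all, 5 of 17 genes of this list rose and none fell, and 1 fell without 18 °C replicate 3. Hsp83, the fly Hsp90, had 850.1, 1196 and 1239.6 CPM in 28 °C males, against 1219.8, 1261, 1135 and 1156 CPM in 18 °C males (-0.12 ± 0.14, adjusted p = 0.52), and the inducible Hsp70Ab had 30.7, 63.6 and 46.7 CPM in 28 °C males, against 24.3, 20.2, 38.7 and 29.6 CPM in 18 °C males (0.74 ± 0.27, adjusted p = 0.050), which did not pass. Reads of Hsp70 genes may have been split between near-identical copies. Of the 8 subunits of the CCT chaperonin edgeR called 0, with 2 at an unadjusted p under 0.05, 1 called by DESeq2 and 1 rise without 18 °C replicate 3. In the endoplasmic reticulum stress list 3 of 21 rose, which is 14.3% called against 23.6% of all features. That count was 5 without 28 °C replicate 1 and 1 without any other library but 18 °C replicate 3. Among the 3 were the transcription factors Xbp1 (0.61 ± 0.14, adjusted p = 0.0051) and crc, the fly ATF4 (0.51 ± 0.08, adjusted p = 0.00056). Xbp1 passed only with all libraries or without 18 °C replicate 3 (adjusted p up to 0.024 otherwise). The exons of Hsp22 overlap another gene in full and those of crc by 73.5%.

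Detoxification genes were mostly higher at 28 °C where they were called. The cytochrome P450 list had 21 rises and 6 falls among 76 genes, 35.5% against 23.6% of all features, with 27 rises without 18 °C replicate 3 and 15 without 18 °C replicate 2 or 4 or 28 °C replicate 2. Cyp309a1 had 114, 77.5 and 92.2 CPM in 28 °C males, against 9.001, 15.2, 14.2 and 15.6 CPM in 18 °C males (2.81 ± 0.24, adjusted p = 4.0e-05), Cyp310a1 rose (2.60 ± 0.17, adjusted p = 1.0e-05), and the insecticide-linked Cyp6g1 had 593, 451 and 459.5 CPM in 28 °C males, against 83.4, 139, 172 and 147 CPM in 18 °C males (1.89 ± 0.29, adjusted p = 0.00064). The falls were led by Cyp28c1 (-1.79 ± 0.24, adjusted p = 0.00028). Glutathione transferases, which conjugate reactive compounds, rose in 11 of 35 cases and fell in 1, with 6 rises left without 18 °C replicate 2 or 4 or 28 °C replicate 2 or 3. GstE8 was the largest, with 42.4, 47.4 and 49.4 CPM in 28 °C males, against 7.22, 9.22, 10.4 and 8.77 CPM in 18 °C males (2.38 ± 0.21, adjusted p = 4.0e-05), ahead of GstZ2 (1.36 ± 0.13, adjusted p = 5.4e-05) and GstE7 (1.21 ± 0.25, adjusted p = 0.0036), whose call ended without any library but 18 °C replicate 3 (adjusted p up to 0.015). UDP-glycosyltransferases rose in 7 of 30 cases and fell in 1, a share called (26.7%) close to that of all features, with 12 rises without 18 °C replicate 3 and 2 without 18 °C replicate 2 or 28 °C replicate 2 or 3. Ugt49B1 had 156, 147 and 148 CPM in 28 °C males, against 31.3, 47.7, 67.4 and 48.6 CPM in 18 °C males (1.63 ± 0.27, adjusted p = 0.00091), and the one that fell, Ugt50B3, had 53.8, 65.3 and 75.1 CPM in 28 °C males, against 206, 273, 115 and 203 CPM in 18 °C males (-1.62 ± 0.26, adjusted p = 0.00085). Among 20 antioxidant genes 5 rose and 2 fell, but 1 rose and 3 fell without 18 °C replicate 2. Catalase (Cat) was the clearest, with 1232, 1349 and 1484 CPM in 28 °C males, against 384, 402, 473 and 543 CPM in 18 °C males (1.59 ± 0.16, adjusted p = 6.7e-05), whereas mitochondrial superoxide dismutase (Sod2) fell (-0.56 ± 0.08, adjusted p = 0.00053). Of the cold and senescence markers, the calcium-binding protein gene smp-30 rose (1.81 ± 0.31, adjusted p = 0.0012) and its relative regucalcin fell (-0.62 ± 0.15, adjusted p = 0.0068), though regucalcin did not pass without 18 °C replicates 1, 2 or 4 or 28 °C replicates 1 or 2 (adjusted p up to 0.028).

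Metal handling was among the lists with the highest share of calls, 9 of 11, although 4 rises and 1 fall were left without 18 °C replicate 2 or 28 °C replicate 1. All 5 metallothioneins, small proteins that bind copper and zinc, rose. MtnA had 2222, 2122 and 2193 CPM in 28 °C males, against 906, 806, 984 and 862 CPM in 18 °C males (1.29 ± 0.11, adjusted p = 3.3e-05), MtnB had 7.45, 9.33 and 10.2 CPM in 28 °C males, against 0.269, 1.13, 1.45 and 0.267 CPM in 18 °C males (3.51 ± 0.52, adjusted p = 0.00052), MtnC rose (1.27 ± 0.16, adjusted p = 0.00020), MtnD rose (2.43 ± 0.42, adjusted p = 0.0013) and MtnE rose (1.73 ± 0.43, adjusted p = 0.0089). The copper importers Ctr1B, given above, and Ctr1A (-0.48 ± 0.11, adjusted p = 0.0070) fell, as did the copper chaperone gene Atox1 (-0.31 ± 0.07, adjusted p = 0.0059), and the copper pump gene ATP7 rose (0.43 ± 0.09, adjusted p = 0.0032). The call of MtnE ended without any library but 18 °C replicate 3 and 28 °C replicate 3 (adjusted p up to 0.051), that of Ctr1A without any but 18 °C replicate 1 (up to 0.033), that of Atox1 without any but 18 °C replicate 3 and 28 °C replicate 3 (up to 0.028) and that of ATP7 without 18 °C replicate 2 or 28 °C replicate 1 (up to 0.015). For MtnE the log2 fold change was 1.04 without 28 °C replicate 1.

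Genes of mitochondrial respiration fell together. The respiratory chain passes electrons from NADH and succinate to oxygen through complexes I to IV, and ATP synthase uses the proton gradient so formed. Of 75 measured nuclear-encoded subunits 57 fell and none rose, against 13.0% of all features called lower, and 73 had a fold change below 0. No subunit rose at an unadjusted p under 0.05 or in DESeq2. The median log2 fold change was -0.48. Summed over the list, the level was 14101, 14126 and 15362 CPM in 28 °C males, against 20289, 18753, 18289 and 19938 CPM in 18 °C males, with no overlap. Without 28 °C replicate 2 the count of falls was 37, and none rose. By complex, 25 of 34 subunits of complex I fell (median -0.45), all 4 of complex II (median -0.67), 7 of 9 of complex III (median -0.42), 11 of 13 of complex IV (median -0.56) and 9 of 14 of ATP synthase (median -0.43). Succinate dehydrogenase, which is complex II and also an enzyme of the tricarboxylic acid cycle, had the lowest median. Its iron-sulphur subunit SdhB had 212, 203 and 224 CPM in 28 °C males, against 473, 389, 415 and 485 CPM in 18 °C males (-1.05 ± 0.10, adjusted p = 5.1e-05), and its membrane subunit SdhC had 107, 116 and 128 CPM in 28 °C males, against 224, 189.7, 188 and 220.2 CPM in 18 °C males (-0.81 ± 0.10, adjusted p = 0.00017). In complex I, ND-30 had 108, 96.8 and 107 CPM in 28 °C males, against 186, 153, 159 and 184 CPM in 18 °C males (-0.71 ± 0.09, adjusted p = 0.00021). The mobile carrier cytochrome c (Cyt-c-p) fell to 176, 203 and 224 CPM in 28 °C males, against 321, 314, 289 and 310.3 CPM in 18 °C males (-0.62 ± 0.09, adjusted p = 0.00044), and the catalytic beta subunit of ATP synthase (ATPsynbeta) had 885, 944 and 928 CPM in 28 °C males, against 949, 952, 1052 and 991 CPM in 18 °C males (-0.10 ± 0.10, adjusted p = 0.47). COX7AL2 fell most (-1.62 ± 0.19, adjusted p = 0.00015).

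**Figure D4:**
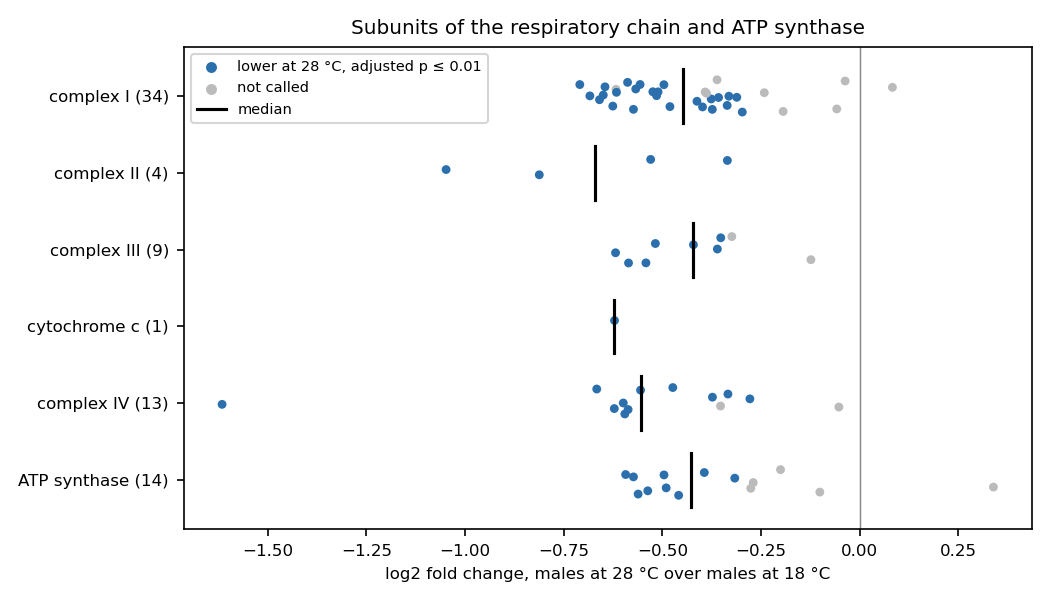
Log2 fold change in males, 28 °C over 18 °C, of 75 nuclear-encoded subunits by complex, with blue points lower at an adjusted p of 0.01 or less, grey points not called and black ticks at medians. All 6 medians lie between -0.42 and -0.67, and COX7AL2 of complex IV lies farthest to the left.

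The rest of central carbon metabolism was mixed. In the tricarboxylic acid cycle 4 of 21 genes rose and 5 fell, 3 without 18 °C replicate 1 or 4 or 28 °C replicate 2 or 3, and 4 of the falls were the succinate dehydrogenase subunits. The rising members Men-b, a malic enzyme, with 579, 448 and 439 CPM in 28 °C males, against 215, 227, 210.5 and 213 CPM in 18 °C males (1.17 ± 0.11, adjusted p = 5.7e-05), and Idh (0.69 ± 0.09, adjusted p = 0.00023) both make NADPH. Of 22 glycolysis and sugar-storage genes 5 rose and 4 fell, against 6 and 7 in DESeq2, and 1 rose without 18 °C replicate 1 or 2 and 2 fell without 28 °C replicate 1 or 2. The trehalase Treh, which releases glucose from the blood sugar trehalose, had 459, 453 and 448 CPM in 28 °C males, against 237, 273, 359 and 281 CPM in 18 °C males (0.66 ± 0.12, adjusted p = 0.0019), and Hex-C, the hexokinase of the fat body, rose (0.84 ± 0.19, adjusted p = 0.0049), a call that ended without any library but 18 °C replicates 3 and 4 (adjusted p up to 0.025). Mitochondrial glycerol-3-phosphate dehydrogenase (Gpo1), which feeds glycolytic electrons into the respiratory chain, fell to 70.04, 76.5 and 83.4 CPM in 28 °C males, against 170.1, 157, 176 and 176 CPM in 18 °C males (-1.15 ± 0.11, adjusted p = 6.1e-05), and phosphoglycerate kinase (Pgk) fell (-0.51 ± 0.07, adjusted p = 0.00049).

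Translation genes were mixed. None of the 75 mitochondrial ribosomal proteins rose and 16 fell. That is 21.3% called, all lower, where 23.6% of all features were called and 13.0% were called lower. Without 28 °C replicate 2, 9 fell, where 988 of all 10918 features did. The largest of these falls was that of mRpL23, with 10.8, 10.7 and 10.6 CPM in 28 °C males, against 23.1, 22.3, 19.02 and 20.4 CPM in 18 °C males (-0.99 ± 0.09, adjusted p = 4.0e-05). Among 89 cytoplasmic ribosomal proteins 4 rose and 11 fell, which is 16.9% called against 23.6% of all features, and the split was 6 against 5 when the most abundant predicted transcript was left out of the scaling. Without any 1 library other than 18 °C replicate 3, 4 fell, and without 28 °C replicate 1, 1 rose. RpL41 fell (-0.73 ± 0.07, adjusted p = 6.1e-05). Initiation factors rose in 13 of 38 cases and fell in 3, with 6 rises left without 28 °C replicate 1. eIF4G2, a scaffold of the cap-binding complex that the testis needs, had 471, 428 and 395 CPM in 28 °C males, against 146, 85.6, 95.9 and 199 CPM in 18 °C males (1.71 ± 0.28, adjusted p = 0.00089), eIF3c rose (0.51 ± 0.08, adjusted p = 0.00091), and eIF4EHP, a repressor that competes for the cap, fell to 135, 135 and 129 CPM in 28 °C males, against 206, 215, 192 and 204 CPM in 18 °C males (-0.62 ± 0.08, adjusted p = 0.00029). Of 32 proteasome subunits 2 rose, which is 6.25% called against 23.6% of all features. Rpn6 (0.35 ± 0.06, adjusted p = 0.0015) rose the more, and there were 5 rises without 18 °C replicate 3 and 1 without any other library. Of 24 subunits of the vacuolar proton pump 1 rose and 4 fell, a share of 20.8% called. The falls were led by VhaM9.7-a (-1.09 ± 0.14, adjusted p = 0.00020). Autophagy genes gave 1 rise and 1 fall among 22 (9.09% called), and 3 rises without 18 °C replicate 3.

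Calls in the nervous system lists were mostly falls. Of 23 neuron and synapse genes 16 fell and none rose, against 13.0% of all features called lower. The falls were 17 without 18 °C replicate 3 and 9 without 28 °C replicate 3. The potassium channel gene Shaker (Sh) had 137, 148 and 119 CPM in 28 °C males, against 359.5, 337, 240.3 and 306 CPM in 18 °C males (-1.21 ± 0.19, adjusted p = 0.00069). The vesicular acetylcholine transporter (VAChT), a marker of cholinergic neurons, had 30.004, 34.2 and 25.01 CPM in 28 °C males, against 66.1, 65.1, 53.6 and 57.7 CPM in 18 °C males (-1.03 ± 0.13, adjusted p = 0.00020), and the neuronal sodium pump subunit nrv3 had 244, 261 and 205 CPM in 28 °C males, against 502, 484, 400.0 and 447 CPM in 18 °C males (-0.95 ± 0.11, adjusted p = 0.00013). The active zone gene Rim (-0.95 ± 0.12, adjusted p = 0.00022) and the sodium channel gene para (-0.95 ± 0.18, adjusted p = 0.0023) also fell, though para did not pass without 28 °C replicate 1 or 3 (adjusted p up to 0.013). The pan-neuronal marker elav, which shares 34.2% of its exon bases and did not pass, had 47.6, 55.7 and 46.7 CPM in 28 °C males, against 57.0, 62.5, 53.3 and 56.4 CPM in 18 °C males (-0.20 ± 0.08, adjusted p = 0.074). The list's sum was 2646, 2827 and 2233 CPM in 28 °C males, against 4151, 4068, 3366 and 3836 CPM in 18 °C males. In the transmitter and amine receptor list 9 of 25 fell and 1 rose, 2 without 18 °C replicate 3. Dopa decarboxylase (Ddc), needed for dopamine and serotonin, had 74.96, 65.1 and 57.0 CPM in 28 °C males, against 166, 156, 131 and 149 CPM in 18 °C males (-1.19 ± 0.12, adjusted p = 7.4e-05), and the octopamine receptors Oamb (-0.94 ± 0.10, adjusted p = 0.00011) and Octbeta2R (-0.81 ± 0.13, adjusted p = 0.00082) fell. The rise was that of ebony (e), which conjugates dopamine (1.08 ± 0.24, adjusted p = 0.0050), a call that ended without 18 °C replicates 1, 2 or 4 or 28 °C replicates 2 or 3 (adjusted p up to 0.022).

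Neuropeptides and peptide hormones fell in 14 of 36 cases and rose in 1, with 17 falls without 18 °C replicate 3 and 6 without 28 °C replicate 2. Drosulfakinin (Dsk), a satiety peptide, had 5.69, 9.48 and 7.44 CPM in 28 °C males, against 22.9, 21.0, 14.4 and 19.4 CPM in 18 °C males (-1.36 ± 0.21, adjusted p = 0.00072), Nplp1 had 37.0, 37.97 and 36.2 CPM in 28 °C males, against 85.0, 88.3, 74.5 and 78.9 CPM in 18 °C males (-1.14 ± 0.11, adjusted p = 7.2e-05), and leucokinin (Lk), a regulator of water balance, fell (-1.19 ± 0.19, adjusted p = 0.00083). CCHa2, a nutrient-sensing peptide of gut and fat body, was the riser, with 68.2, 128 and 140.2 CPM in 28 °C males, against 47.8, 58.6, 58.6 and 68.2 CPM in 18 °C males (0.94 ± 0.24, adjusted p = 0.00997), and it passed only with all libraries or without 28 °C replicate 1 (adjusted p up to 0.050 otherwise). The genes of 2 insulin-like peptides of the brain fell. Ilp2 had 7.24, 6.78 and 4.59 CPM in 28 °C males, against 24.3, 18.4, 13.2 and 20.3 CPM in 18 °C males (-1.62 ± 0.27, adjusted p = 0.0011), and Ilp5, at a low level, had 0.724, 0.982 and 0.948 CPM in 28 °C males, against 2.96, 2.41, 2.13 and 2.89 CPM in 18 °C males (-1.54 ± 0.31, adjusted p = 0.0028). ImpL2, which binds and blocks insulin-like peptides, had 294, 311 and 334 CPM in 28 °C males, against 148, 192, 226 and 209 CPM in 18 °C males (0.69 ± 0.14, adjusted p = 0.0029). In the whole insulin and TOR list 2 of 26 rose and 3 fell, which is 19.2% called against 23.6% of all features. These counts were 4 and 3 without 18 °C replicate 3 and 5 and 3 in DESeq2, while 0 rose without 28 °C replicate 2 and 1 fell without 28 °C replicate 1 or 3. Calls were lost for Ilp5 without any 28 °C library and for ImpL2 without 28 °C replicate 2 or 3 (adjusted p up to 0.015 and 0.014). ImpL2 shares 61.9% and Lk 93.0% of its exon bases with another gene.

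The compound eye makes up a large part of head RNA. Of 35 phototransduction genes 14 fell, 21 were not called and none rose, where 13.0% of all features were called lower. Without 18 °C replicate 3 or 28 °C replicate 1 or 3, 1 rose. In the full fit 3 were higher at an unadjusted p under 0.05, and DESeq2 called 1 of them. Rhodopsin 1 (ninaE), the light receptor of the outer photoreceptors, had 4682, 4748 and 3682 CPM in 28 °C males, against 9186, 8741, 7096 and 8806 CPM in 18 °C males (-0.95 ± 0.12, adjusted p = 0.00024). Arrestin 1 (Arr1), which shuts rhodopsin off, had 902, 986 and 744 CPM in 28 °C males, against 2782, 2716, 2026 and 2512 CPM in 18 °C males (-1.52 ± 0.13, adjusted p = 3.9e-05). The G protein subunit Gbeta76C fell (-1.16 ± 0.14, adjusted p = 0.00016), as did the rhodopsin chaperone ninaA (-1.12 ± 0.15, adjusted p = 0.00028) and the green-sensitive Rh6 (-0.87 ± 0.11, adjusted p = 0.00026). The list's sum was 12223, 12562 and 9691 CPM in 28 °C males, against 20744, 20014, 16226 and 19529 CPM in 18 °C males, with no overlap, and 28 °C replicate 3 was the lowest library. Exons of ninaA are shared in full with another gene.

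Clock genes changed in 7 of 14 cases, against 23.6% of all features. Light and temperature set the daily clock, in which the proteins period and timeless repress their own transcription factors, and the flies were frozen within a fixed window of the morning. The repressor gene per, whose groups were narrow and far apart, had 14.4, 13.1 and 12.6 CPM in 28 °C males, against 41.9, 42.6, 42.7 and 42.6 CPM in 18 °C males (-1.66 ± 0.09, adjusted p = 6.0e-06), with 26.6, 25.8, 23.3 and 21.1 CPM at 24 °C. The transcription factor vri fell (-0.81 ± 0.12, adjusted p = 0.00056), whereas Clk rose to 97.8, 90.4 and 94.0 CPM in 28 °C males, against 61.4, 61.2, 50.2 and 58.8 CPM in 18 °C males (0.70 ± 0.09, adjusted p = 0.00027). The photoreceptor cry rose (0.67 ± 0.14, adjusted p = 0.0040), a call that ended without any library but 18 °C replicate 3 (adjusted p up to 0.018). The partner gene tim had 131, 102 and 81.8 CPM in 28 °C males, against 138, 143, 151 and 141 CPM in 18 °C males (-0.45 ± 0.15, adjusted p = 0.034), which did not pass.

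Muscle genes moved in both directions. Of 29 sarcomere genes 13 fell and 5 rose, which is 62.1% called against 23.6% of all features, and 2 rose without 28 °C replicate 3. Troponin C isoforms fell, TpnC41C with 20.1, 19.8 and 21.7 CPM in 28 °C males, against 52.0, 55.1, 40.6 and 48.5 CPM in 18 °C males (-1.26 ± 0.11, adjusted p = 5.1e-05) and TpnC25D with 38.8, 35.1 and 36.2 CPM in 28 °C males, against 87.9, 86.7, 81.9 and 82.8 CPM in 18 °C males (-1.21 ± 0.08, adjusted p = 1.0e-05), and so did the giant titin-like protein sallimus, sls (-0.75 ± 0.09, adjusted p = 0.00020). Flight muscle actin (Act88F) was higher, with 74.2, 72.7 and 95.1 CPM in 28 °C males, against 30.3, 25.6, 48.8 and 26.1 CPM in 18 °C males (1.30 ± 0.21, adjusted p = 0.00075), and flightin (fln), a thick filament protein of the same muscle, rose (0.91 ± 0.15, adjusted p = 0.0010), with 61.6% of its exon bases shared with another gene. The 24 °C males had more Act88F than both groups, 114, 133, 147 and 132 CPM. Myosin heavy chain (Mhc) had 1585, 1584 and 1513 CPM in 28 °C males, against 1351, 1418, 1279 and 1444 CPM in 18 °C males (0.18 ± 0.08, adjusted p = 0.080). The summed list was 13495, 12968 and 13356 CPM in 28 °C males, against 16450.0, 16068, 15206 and 16099 CPM in 18 °C males.

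Of the lists of male reproductive organs, only that of the seminal fluid held falls. The accessory glands make the seminal fluid proteins that are passed to females at mating, and virgin males store them. Of 10 measured seminal fluid genes 8 fell and none rose, against 13.0% of all features called lower, and 7 fell without 18 °C replicate 3. Their median log2 fold change was -1.20. The summed level was 781, 859 and 969 CPM in 28 °C males, against 2548, 2503, 1834 and 2326 CPM in 18 °C males, with no overlap. Acp32CD (chromosome 2L, 11015620 to 11016571), an accessory gland protein, had 104, 108 and 122 CPM in 28 °C males, against 673, 568, 349 and 543 CPM in 18 °C males (-2.26 ± 0.23, adjusted p = 7.7e-05). The lectin genes lectin-46Ca and lectin-46Cb, whose products act in sperm storage in females, had 66.1, 66.6 and 77.97 CPM in 28 °C males, against 445, 374, 243 and 358 CPM in 18 °C males (-2.34 ± 0.21, adjusted p = 5.0e-05) and 68.96, 65.2 and 84.3 CPM in 28 °C males, against 398, 311, 200.3 and 299 CPM in 18 °C males (-2.05 ± 0.22, adjusted p = 0.00010). Sfp78E fell by a similar amount (-2.08 ± 0.23, adjusted p = 0.00011). The 18 °C replicate 3 pool was the lowest cool one in all 4 genes. The 3 ejaculatory duct and bulb genes did not pass the test in edgeR or DESeq2, and 0 had an unadjusted p under 0.05.

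Few genes of the testis lists were called, but where any rose the share was not below that of all features. None of 17 genes of germline stem cells and spermatogonia was called in edgeR or DESeq2, with 3 higher and 3 lower at an unadjusted p under 0.05. Of 17 spermatid and sperm genes 2 rose (11.8%), and 1 of 6 meiotic arrest and testis TAF genes rose (16.7%), against 10.7% of all features called higher. The summed spermatid list was 6288, 5461 and 6175 CPM in 28 °C males, against 6583, 5291, 3891 and 5848 CPM in 18 °C males, and the groups overlapped. The testis TAF mia rose, with 50.6, 44.3 and 42.7 CPM in 28 °C males, against 17.9, 14.6, 15.6 and 14.8 CPM in 18 °C males (1.54 ± 0.12, adjusted p = 2.6e-05). Dic61B, a dynein intermediate chain, rose (1.06 ± 0.17, adjusted p = 0.00083), and Pif1A rose (0.93 ± 0.23, adjusted p = 0.0089), a call that ended without any library but 18 °C replicate 3 (adjusted p up to 0.035). Pif1A shares 85.7% of its exon bases with another gene. The table lists only features above 0 in every library, females included, so genes read only in male organs may be missing from it and were not analysed here. Of 25 genes of the piRNA pathway 3 rose, which is 12% against 10.7% of all features, and 1 rose without 18 °C replicate 2 or 4 or 28 °C replicate 1 or 2. Without 18 °C replicate 3, 1 fell. Among the rises armi was the largest, with 27.8, 30.1 and 30.1 CPM in 28 °C males, against 12.4, 13.997, 13.4 and 15.6 CPM in 18 °C males (1.08 ± 0.08, adjusted p = 2.4e-05), although 99.6% of its exon bases are shared with another gene.

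Sex determination genes changed in 4 of 11 cases. The genes doublesex and fruitless, whose transcripts are spliced differently in the sexes, fell, dsx with 48.3, 51.9 and 58.6 CPM in 28 °C males, against 89.4, 100.2, 76.9 and 93.1 CPM in 18 °C males (-0.76 ± 0.10, adjusted p = 0.00024) and fru with 48.9, 46.8 and 44.5 CPM in 28 °C males, against 94.8, 94.7, 72.0 and 94.1 CPM in 18 °C males (-0.93 ± 0.11, adjusted p = 0.00019), and the splicing factor tra2 rose (0.45 ± 0.09, adjusted p = 0.0028), though not past the threshold without 28 °C replicate 1 or 3 (adjusted p up to 0.013). None of 7 dosage compensation genes was called in edgeR or DESeq2, with 2 higher and 1 lower at an unadjusted p under 0.05, and roX1 (-0.26 ± 0.10, adjusted p = 0.069) was not called. Yolk proteins, made by the fat body of females, were at low levels in males. Yp1 had 5.38, 8.59 and 33.4 CPM in 28 °C males, against 3.02, 3.54, 2.38 and 2.995 CPM in 18 °C males (2.40 ± 0.52, adjusted p = 0.0041), with 28 °C replicate 3 the highest, and its log2 fold change was 1.23 without that pool. Yp1 shares 54.3% of its exon bases with another gene. Its call ended without 18 °C replicate 1, 2 or 4 (adjusted p up to 0.013). Yp2 had 1.29, 2.36 and 12.9 CPM in 28 °C males, against 2.05, 2.20, 0.933 and 1.60 CPM in 18 °C males (1.70 ± 0.63, adjusted p = 0.053) and Yp3 had 14.4, 15.1 and 22.5 CPM in 28 °C males, against 18.8, 21.2, 15.1 and 18.1 CPM in 18 °C males (-0.08 ± 0.15, adjusted p = 0.73). The 24 °C pools had more Yp1 than 18 °C males, 16.8, 21.5, 21.9 and 15.1 CPM. The male values compare with 22860.0 to 28107 CPM in females at 28 °C. Yp3 was lower in females, at 10171 to 15089 CPM at 28 °C and 1551.7 to 3455 CPM at 18 °C. The oocyte patterning gene grk fell (-1.001 ± 0.07, adjusted p = 1.5e-05) and fs(1)N rose (0.94 ± 0.11, adjusted p = 0.00018). Replication and cell cycle genes gave 3 rises and 4 falls among 34, which is 20.6% called against 23.6% of all features. Without 28 °C replicate 2 they gave 0 rises and 1 fall. When the most abundant predicted transcript was left out of the scaling, 5 rose and 4 fell. The replication clamp PCNA (-0.68 ± 0.13, adjusted p = 0.0020) and the origin subunit Orc5 (-1.02 ± 0.20, adjusted p = 0.0025) fell, but PCNA did not pass without 28 °C replicate 2 (adjusted p = 0.011) nor Orc5 without 28 °C replicate 2 or 3 (adjusted p up to 0.014).

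Secreted, structural and sensory families were mixed. Of 32 cuticle protein genes 5 rose and 8 fell, which is 40.6% called against 23.6% of all features, and 5 fell without any 1 of the 28 °C libraries. Cpr49Ab had 29.7, 42.6 and 60.9 CPM in 28 °C males, against 7.22, 5.42, 8.19 and 6.42 CPM in 18 °C males (2.70 ± 0.30, adjusted p = 0.00013), and Cpr49Ag, a neighbour in the same cluster, had 0.569, 0.884 and 0.948 CPM in 28 °C males, against 4.90, 5.09, 2.80 and 4.12 CPM in 18 °C males (-2.39 ± 0.27, adjusted p = 0.00012). In the takeout family 6 of 20 rose and 1 fell, with Jhbp7 (1.54 ± 0.22, adjusted p = 0.00047) after CG11854. Hormone genes of the ecdysone and juvenile hormone list gave 2 rises and 3 falls among 31 (16.1% called). The juvenile hormone epoxide hydrolase Jheh2, with 91.6% of its exon bases shared, rose (1.16 ± 0.20, adjusted p = 0.0012), sad, an enzyme of ecdysone synthesis, had 4.86, 6.09 and 5.19 CPM in 28 °C males, against 2.10, 1.82, 3.16 and 2.09 CPM in 18 °C males (1.23 ± 0.21, adjusted p = 0.0013), and the ecdysone-induced Eip93F fell (-0.81 ± 0.10, adjusted p = 0.00020). Odorant-binding proteins rose in 2 and fell in 4 of 29 cases, a share of 20.7% called. Obp56h and Obp19b (-1.44 ± 0.27, adjusted p = 0.0017) were among the falls, and 1 fall was left without 28 °C replicate 3, that of Obp19b being one of those lost. Chemoreceptors gave 3 rises, 5 without 18 °C replicate 1, and 3 falls among 50, with ppk29, an ion channel of pheromone-sensing neurons, at 1.97, 2.01 and 2.30 CPM in 28 °C males, against 6.09, 5.47, 4.82 and 6.15 CPM in 18 °C males (-1.43 ± 0.19, adjusted p = 0.00031). Of 404 long noncoding RNAs 74 fell and 25 rose, a share of 24.5% called that is close to the 23.6% of all features, with 42 falls left without 28 °C replicate 2, and their median log2 fold change was -0.24. The abundant lncRNA:mimi had 120.2, 137 and 125 CPM in 28 °C males, against 789.6, 733, 527 and 554 CPM in 18 °C males (-2.35 ± 0.16, adjusted p = 1.0e-05), with 341, 321, 307 and 265 CPM at 24 °C.

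The female libraries were used to ask which of these changes were of different size in the sexes. In 1 fit over all 23 libraries, 1951 of 10884 features (17.9%) had a male change that differed from the female change. The difference was more positive in males for 973 (8.94%) and more negative for 978 (8.99%). That balance depended on the scaling, since 1783 were more positive and 652 more negative when all libraries of both sexes were scaled together, 1364 and 752 without scaling beyond library totals, and 1614 and 980 in DESeq2. The median difference over all features was -0.04 in the main fit and 0.15 with the joint scaling. Both sexes had the same ages at each temperature, so a different response to age and a different response to temperature cannot be told apart here. Without replicate 1 of the 28 °C females 2524 features differed, and without 28 °C male replicate 1 the count was 1559.

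The genes with the largest differences included some with opposite changes in the sexes. CG11854 rose in males (log2 fold change 3.59 in this fit, against -0.10 in females), while females had 0.649 to 1.39 CPM at 28 °C and 0.738 to 1.60 CPM at 18 °C (difference 3.69 ± 0.32, adjusted p = 2.6e-07). Hsp22 rose in males and fell in females, who had 47.4 to 87.1 CPM at 28 °C and 94.7 to 194 CPM at 18 °C (difference 2.94 ± 0.36, adjusted p = 9.6e-06). CG31875 (difference 4.61 ± 0.36, adjusted p = 6.3e-08), Dhc98D (difference 3.55 ± 0.34, adjusted p = 7.0e-07) and CG14053 (difference 2.83 ± 0.33, adjusted p = 4.9e-06) had male log2 fold changes of 0.94, 0.43 and -0.01, against -3.66, -3.12 and -2.83 in females. Dhc98D was low in females, with means of 0.265 CPM at 28 °C and 2.34 CPM at 18 °C. The call of CG31875 in the male comparison ended when any 1 of the 7 libraries was left out (adjusted p up to 0.0265). On the other side stood Npc2e, which fell in males and had 28.1 to 33.6 CPM in females at 28 °C and 1.04 to 21.2 CPM at 18 °C (difference -7.84 ± 1.46, adjusted p = 0.00044). The Turandot genes were also among them. TotA had 52.8 to 167 CPM in males at 28 °C and 36.8 to 96.5 CPM at 18 °C, against 929 to 3443 CPM in females at 28 °C and 7.42 to 13.0 CPM at 18 °C (difference -6.77 ± 0.85, adjusted p = 1.1e-05). TotC (difference -7.42 ± 1.17, adjusted p = 8.7e-05) and TotM (difference -6.40 ± 1.18, adjusted p = 0.00042) followed, and all 4 Turandot genes had a more negative change in males. Lsp2 rose in both sexes and more in females (difference -6.97 ± 1.12, adjusted p = 0.00011).

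Counts by list are to be read against 8.94% of all features more positive in males and 8.99% more negative. By list, the male change was more positive in 22 of 38 translation initiation factors and more negative in 1, with medians of 0.22 in males and -0.21 in females, and in 27 of 89 cytoplasmic ribosomal proteins, none being more negative (medians -0.08 and -0.41). With the joint scaling these counts were 30 of 38 and 77 of 89, where 1783 of all 10884 features were more positive and 652 more negative. Hsc70-4 had a log2 fold change of 0.71 in males and -0.15 in females (difference 0.86 ± 0.11, adjusted p = 1.2e-05), and 7 of 17 members of its list had a more positive male change. In methionine and glycine metabolism 9 of 20 were more positive and 2 more negative. Ahcy rose in males and fell in females (difference 1.47 ± 0.16, adjusted p = 2.3e-06), whereas Gnmt rose in both and more in females (difference -4.20 ± 0.55, adjusted p = 1.6e-05). The respiratory chain had a more negative male change in 12 of 75 genes and none more positive (medians -0.48 and -0.17), but in 5 and 1 with the joint scaling. With that scaling its share of more negative genes was close to that of all features (652 of 10884). Seminal fluid genes were more negative in males in 5 of 10 cases, but members of this list were near the floor in females. Female means at 28 °C and 18 °C were 0.441 and 0.575 CPM for lectin-46Ca, 0.925 and 0.999 CPM for lectin-46Cb, and 0.274 and 0.315 CPM for Sfp78E. The female change of such genes therefore says little. Gut proteases were more negative in males in 9 of 29 cases, with a median of 0.42 in males and 1.59 in females. Ctr1B had a log2 fold change of -2.97 in males and 0.39 in females, who had 18.3 to 28.1 CPM at 28 °C and 14.04 to 22.5 CPM at 18 °C (difference -3.36 ± 0.29, adjusted p = 2.1e-07). The flight muscle actin gene Act88F rose in males and fell in females (difference 2.39 ± 0.34, adjusted p = 3.5e-05), and dsx fell in males and rose in females (difference -1.37 ± 0.16, adjusted p = 5.9e-06). No list named in this paragraph changed the side with more members under the joint scaling, under library totals or in DESeq2.

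**Figure D5:**
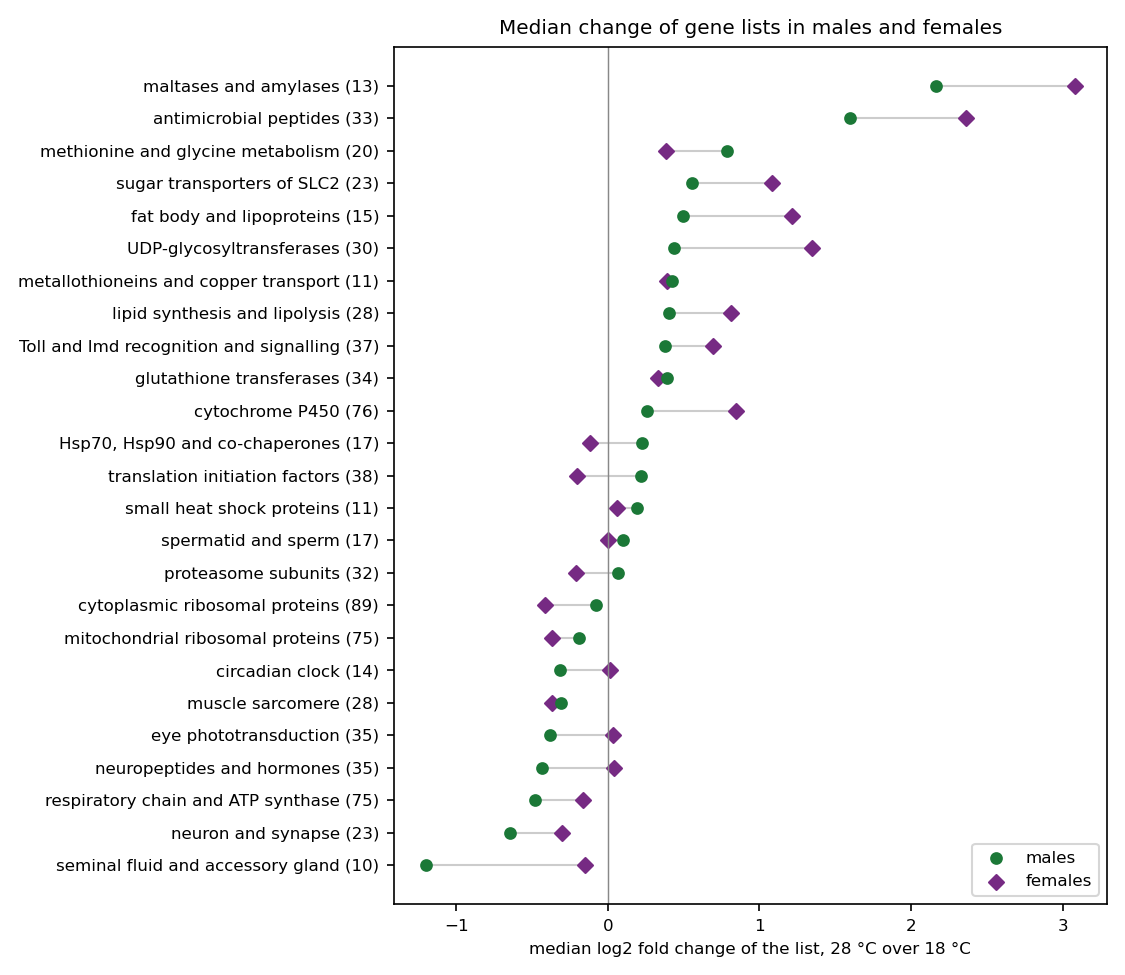
Median log2 fold change, 28 °C over 18 °C, of 25 gene lists in males (green circles) and females (purple diamonds), from 1 fit over 23 libraries scaled within each sex; the number of measured members is in brackets. Maltases and amylases lie highest in both sexes, and seminal fluid genes lie lowest in males. The female median of the seminal fluid list includes genes near the floor in females, such as lectin-46Ca. Translation initiation factors lie above 0 in males (0.22) and below it in females (-0.21).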

How the data were processed

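Poly-A RNA of pools of 10 whole virgin flies was sequenced on BGISEQ-500 as paired reads. The authors deposited expected counts, made with SOAPnuke for read filtering, HISAT, StringTie and Cuffcompare for gene models, CPC for coding potential, Bowtie2 for alignment and RSEM for counting. The tools' roles come from the study's methods, and the submitters' processing notes name the dm6 build. RSEM shares ambiguous reads between genes by a model, so 23.23% of the deposited values were not whole (more than 0.001 from a whole number), and all were rounded. The table had 11152 features and no value of 0, so features absent from any library were not analysed here. Current symbols were found by gene ID for 11073, and 74 predicted transcripts had none. Exon overlaps and coordinates are of the dm6 (Release 6) annotation. Strand use was not stated.

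Fits used edgeR 4.0.16 in R 4.3.3 (quasi-likelihood test, Benjamini-Hochberg adjustment). The male fit held 11 libraries at 3 temperatures with TMM scaling among males, features with a mean of at least 0.5 CPM over the 7 libraries compared, and a threshold of 0.01. The difference between the sexes came from 23 libraries with 6 group means, scaled within each sex. On simulated counts for the male comparison this recovered 16 of 100 genes changed 1.5-fold and 65 of 100 changed 2-fold at 10918 features, with 0 calls among 10718 unchanged features. Alternatives were DESeq2 1.42.0, other scalings and filters, fewer or more libraries, a replicate block and leaving out each library. Named genes were the 12 largest rises and 12 largest falls with a mean of at least 5 CPM over the 7 libraries compared and no overlap, up to 4 called members of each list with further members where a role needed them, sex checks, and the 5 largest differences between the sexes in each direction. The comparison, members and lists were chosen with earlier results of these data known. Summed CPM of a list adds its members' scaled CPM.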

Additional observations from a re-analysis of the deposited data

Results flagged for a closer look

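Among 219 named genes and list sums tested in the 4 libraries of 18 °C males, 10 had 1 library set apart from the other 3 by Dixon's test at its 95% level, and chance alone flags about 1 in 20. The test weighs the gap against the range, so a small gap is flagged where the other pools nearly coincide, as for per. The flagged values were 114.7 CPM for Mtk, 87.4 CPM for Drs, 18.8 CPM for MtnC, 207 CPM for eIF3c, 22.6 CPM for Oamb, 41.9 CPM for per, 943 CPM for sls, 72.0 CPM for fru, 9.28 CPM for Orc5 and a sum of 2603 CPM for glutathione transferases.

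The change of males differed from that of females for 1951 features by the test of the difference itself. The male minus female differences in log2 fold change were 4.61 for CG31875, 3.69 for CG11854, 3.55 for Dhc98D, 2.94 for Hsp22 and 2.83 for CG14053. On the negative side they were -7.84 for Npc2e, -7.42 for TotC, -6.97 for Lsp2, -6.77 for TotA, -6.40 for TotM, -6.34 for Acbp6 and -5.39 for CG7298. Smaller negative differences were -3.39 for CG11912, -3.36 for Ctr1B, -3.18 for CG44013, -2.85 for CG17571, -2.65 for Mov10, -2.57 for CG31041 and -1.81 for Obp56h.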

How the results depend on the processing

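The count of 2578 features between 28 °C and 18 °C males ranged from 1671 to 2867 with 1 library left out and was 4335 at an adjusted p of 0.05, 3492 in DESeq2 and 2171 in a fit of the 7 libraries alone. With the most abundant predicted transcript left out of the scaling, 1344 were higher and 1287 lower. The count of 1951 differences between the sexes ranged from 1559 to 2524 with 1 library left out and was 3430 at an adjusted p of 0.05. Whether replicate numbers pair the libraries is not stated by the labels. Deviations of same-numbered 28 °C and 18 °C pools correlated at 0.031, -0.029 and -0.018, and those of differently numbered pools at -0.091 to 0.119. So few pools cannot settle the question. The fit with the replicate block called 2513 features, or 2083 for the difference between the sexes. No called named gene changed sign in any fit. Of 185 called named genes, 141 kept the call in every fit, and the block ended 18 calls. Values that were not called turned sign for Hsp83, whose log2 fold change ran from -0.222 to 0.0294 with 1 library left out, and for Yp3, which ran from -0.309 to 0.0413. The cause of these shifts was not tested. The simulated recovery of 1.5-fold changes was low. However, the simulation changed only 100 genes by 1.5-fold and 100 by 2-fold, far fewer than the 2578 called in the data. The adjustment is stricter with so few changed genes, so the simulated recovery may lie below that of the real test. Changes of about 1.5-fold may still have gone uncalled.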
